A study of Homo sapiens with 4 samples.

Results

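The features described here are the most abundant ones that the annotation of these libraries types as long non-coding RNA (lncRNA). Members were selected on their raw counts: a feature of that type is a member if its counts sum to at least 1000 over the 4 libraries, after 10 identifiers are left out. Of 155642 features in the table, 100 met the rule, and they held 455313 of 6590422 counts (6.91%). The 10 identifiers left out include 18S ribosomal RNA features but also features over tRNA genes, while 2 features on the 28S ribosomal pseudogene RNA28SP remain among the members, so the set is not free of ribosomal sequence. The rule reads the same counts that are compared between groups. Since 69.1% of all counts came from the p53 shRNA libraries, a limit on the sum leans towards features that are high there. Most of the 10 identifiers left out had more counts in each control than in each p53 shRNA library, so leaving them out leans the same way. The rest, which are the most abundant of the 10, had fewer. The direction of the members as a set is thus given as a description only.

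The RNA came from small extracellular vesicles, particles wrapped in membrane that cells shed, of the established human colon cancer cell line HT29. The control group was 2 libraries from HT29 cells with a nontargeting shRNA, and the other was 2 libraries from HT29 cells with an shRNA against p53. All 4 came from cells at passage 5 to 15 and from cDNA size-selected to 18 to 40 nt, so a count on a longer RNA is a count of a fragment. Counts per library ran from 938754 to 2611032, and a library held 18575 to 34078 features with a count. The correlation of log2 CPM (read counts relative to library size after TMM correction) across features was 0.651 for the control pair and 0.747 for the p53 shRNA pair. Nothing in the labels tells separate cultures from repeat preparations within a group, so the p-values reflect a spread that may be technical. The knockdown itself was not analysed here and is known from the labels alone. Of 11 hairpins listed for colon epithelium, 4 had counts (119 in all). MIR7-1 held 112 of them, while MIR200C, MIR141 and MIR375 held 1, 3 and 3. The 5 red blood cell and serum hairpins held 2 counts and the fibroblast, muscle and neural hairpins held 0. These hairpins had few bases outside other features, and the colon counts rest on MIR7-1 almost alone. The check of the cell type is therefore weak and does not settle it.

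Long non-coding RNA is a catch-all annotation: a transcript longer than the small RNA classes, without a recognised open reading frame. Such transcripts are often drawn over introns and antisense strands of protein-coding genes, over pseudogenes, and over copies of short structured RNAs such as 7SL (the RNA of the signal recognition particle, which guides secretory proteins), U2 (a spliceosomal RNA) and Y RNA (a partner of the Ro60 protein). Vesicle small RNA is known to carry fragments of these structured RNAs. A count on an lncRNA-typed feature in a library of short fragments therefore names a stretch of genome, and the deposited counts follow the pattern of counting without strand, in which reads from either strand of a locus are summed.

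Each member was placed on the genes under it, in GENCODE 29 and in RefSeq on GRCh38. Kinds followed an order of precedence that puts small RNA loci first, and 1 shared base was enough. By it, 32 members lay on an exon of a protein-coding gene and 31 on an lncRNA gene. A member on both was counted under the former. Another 16 lay only in introns (a protein-coding gene outside its GENCODE exons) or on pseudogenes. The rest were 9 on no gene, 5 on a 7SL copy, 2 on a ribosomal RNA copy, 2 on an snRNA gene, 2 on miRNA hairpins and 1 on a Y RNA copy. The members came from 21 chromosomes, with 13 on chromosome 2, 9 on chromosome 9 and 8 on chromosome 3. LNCipedia alone provided 72 of them and GENCODE or Ensembl 28. Length ran from 211 to 60234 bases with a median of 1383.5, and 70 members have more than 1 interval. Features had counts only where they have bases that no other feature covers, and such own bases ran from 99 to 57479 per member with a median of 1264.

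The 7SL copies show how a structured RNA appears under the name of an lncRNA. RN7SL5P lies in an intron of PTPRD, RN7SL4P in an intron of ANKRD28 and RN7SL752P in an intron of PLXND1. Their longest runs identical to RN7SL1, a 7SL gene, span 209, 133 and 61 bases. With matches of 18 bases to either RN7SL1 or RN7SL2, the run in RN7SL4P spans 192 bases. Inside the members the copies are 88.7%, 86.1% and 81.3% identical to RN7SL1. A fragment of 18 to 40 nt from a run identical to RN7SL1 matches RN7SL1 and the copy equally, so counts on a single copy are uncertain. The sequence under the member on a U2 gene is printed 5′ to 3′ from a GENCODE 29 transcript on GRCh38, since it shows the same for a spliceosomal RNA. RNU2-2P, at chr11:62841619-62841809 on the minus strand, lies inside a member and is 95.9% identical to the U2 gene RNU2-1. Its first 107 bases, in capitals, are an identical run.
RNU2-2P: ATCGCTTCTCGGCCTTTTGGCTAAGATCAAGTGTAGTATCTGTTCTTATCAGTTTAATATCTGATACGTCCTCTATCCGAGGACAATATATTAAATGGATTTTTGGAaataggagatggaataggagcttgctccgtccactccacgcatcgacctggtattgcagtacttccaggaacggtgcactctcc
Stretches under other members, from the same source, are shown beside it. The GSG1L stretch, at chr16:28063076-28063259 on the minus strand, is the coding exon under the member with the smallest p among the lower ones. The AD000090.1 exon, at chr19:35575780-35575932 on the plus strand, belongs to the fifth most abundant member. The last is the longest run common to 5 members on genes of the SPATA31 family, given at its position in the coding sequence of SPATA31A5 (chr9:60919200-60919239, plus strand). No part of these 3 is capitalised.
GSG1L: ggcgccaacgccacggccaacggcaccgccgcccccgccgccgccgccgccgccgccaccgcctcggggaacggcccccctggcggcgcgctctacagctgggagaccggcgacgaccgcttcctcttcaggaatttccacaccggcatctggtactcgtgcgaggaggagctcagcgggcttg
AD000090.1: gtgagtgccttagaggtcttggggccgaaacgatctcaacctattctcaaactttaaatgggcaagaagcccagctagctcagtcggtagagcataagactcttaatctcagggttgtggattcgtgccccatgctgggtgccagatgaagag
SPATA31 run: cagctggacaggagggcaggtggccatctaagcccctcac

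Counts were concentrated in few members. The most abundant held 16.6% of the members' counts, the first 2 held 23.9% and the first 10 held 51.1%, while the median member held 1814 counts. Per kilobase of own bases, the sum over the 4 libraries ran from 43.5 to 294325 counts. Just inside the limit stood features with 1033, 1033 and 1040 counts, and just outside it features with 979, 971 and 961.

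The most abundant member, URS00008B46CF, has 3 intervals on chr2:78686671-78701899 and lies on no gene, 84097 bases from LOC105374821. Its CPM was 12498 and 17304 in the controls against 10289 and 8896 under p53 shRNA. The groups did not overlap, but the log2 change was -0.64 (SE 0.26) and the adjusted p 0.825 by edgeR's quasi-likelihood test. The second, URS00008C13F9 (chr9:76571738-76572019), lies in an intron of GCNT1, a glycosyltransferase that branches O-glycans. Its CPM was 5542 and 5718 in the controls, between the 2683 and 7081 of the p53 shRNA libraries. With 114 own bases it had 294325 counts per kilobase, the highest of the 100.

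The third, URS0000EEAD8B (chr2:74465339-74472961), lies opposite exons of MOGS, a glucosidase that trims N-glycans in the endoplasmic reticulum, of MRPL53, a mitochondrial ribosomal protein, and of CCDC142. It has 335 own bases in coding sequence. Its CPM was 1499 and 1421 in the controls against 3437 and 3829 under p53 shRNA. Each pair was close and the groups stood apart, with a log2 change of 1.32 (SE 0.09, adjusted p = 0.672, edgeR). Counts were 1016, 1435, 9619 and 8929.

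The fourth, URS00008C3198 (chr12:127165926-127166443), lies on LOC105370062, with CPM of 5617 and 3152 in the controls against 2477 and 2220 under p53 shRNA. The fifth, URS0000A827F4 (chr19:35557956-35581954), lies on AD000090.1, an lncRNA gene, and overlaps an intron of ATP4A, the catalytic subunit of the gastric proton pump. Its CPM was 4478 and 4715 in the controls against 1346 and 2223 under p53 shRNA, and its exon is printed above. Both were lower in each p53 shRNA library than in each control, and neither passed the test (log2 changes -0.90 and -1.37, adjusted p = 0.772 and 0.654, edgeR).

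The sixth, URS0000D5D372 (chr16:34160044-34161697), on the pseudogene LOC110262331, had a CPM of 1177 and 1362 in the controls, 288 in p53 shRNA replicate 1 and 5476 in replicate 2. The p53 shRNA libraries thus stood on opposite sides of the controls. The seventh, URS0000223CF5 (chr14:101257332-101278318), on the lncRNA gene AL359682.1, had a CPM of 690 and 579 in the controls against 2910 and 2103 under p53 shRNA. Its log2 change was 1.98 (SE 0.27, unadjusted p-value 0.0925, adjusted p = 0.509, edgeR). That is the smallest unadjusted value among higher members whose groups did not overlap.

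The remaining 3 of the first 10 overlapped between groups. URS00008C1ED1 (chr2:132278655-132280071) has 638 of its 1361 own bases on RNA28SP, and its CPM was 1457 and 1808 in the controls against 1603 and 2785 under p53 shRNA. URS0000491A14 (chr6:143484979-143507327) lies on exons of the lncRNA gene AL031320.2 over its whole length. It also touches exons of PEX3, needed to build peroxisomes, and of FUCA2, a fucosidase. Its CPM was 859 and 2121 in the controls against 1940 and 1585 under p53 shRNA. URS00000D2EDD, on the lncRNA gene AC103952.1 and an intron of GDAP1, had CPM of 605 and 1743 in the controls against 1389 and 2179 under p53 shRNA.

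**Figure D1:**
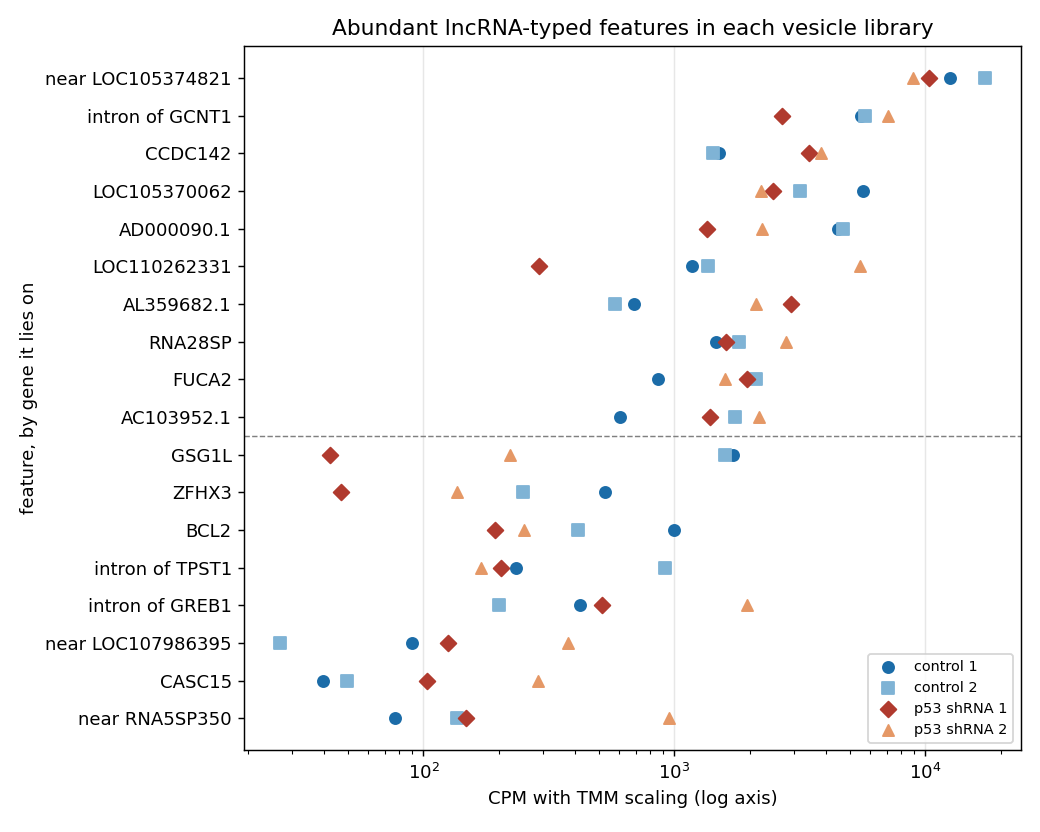
CPM with TMM scaling (log axis) of the 10 most abundant members, above the dashed line, and of 8 members with the smallest unadjusted p among those whose groups do not overlap, below it; each symbol is 1 library. The AD000090.1 and GSG1L features sit higher in both controls, and the CCDC142 and AL359682.1 features higher in both p53 shRNA libraries.

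No feature passed an adjusted p of 0.05 among the 2780 tested by edgeR's quasi-likelihood test (0%), and so none of the 100 members did. All 100 passed the filter on low counts, which their totals fix. The smallest adjusted p was 0.254 among the members and 0.122 over all features. At an unadjusted p under 0.05, 2 members were higher with p53 shRNA, against 121 of all features (4.35%), and 1 was lower, against 217 (7.81%). DESeq2's Wald test called 37 features, 1 of them a member. The CPM of 14 members did not overlap between groups in the higher direction, against 22.9% of all features, and that of 10 in the lower direction, against 18.6%. These shares are not above the background. The log2 change was above 0 for 68 members, against 51.4% of all features, with a median of 0.62 among members and 0.05 over all, a direction that the rule leans towards. Leaving out p53 shRNA replicate 1 gave a members' median of 0.32, and leaving out replicate 2 one of 0.15. With library totals in place of TMM factors the median over all features moved to 0.49 and that of the members to 1.18, and the unadjusted calls were 308 higher and 170 lower.

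**Figure D2:**
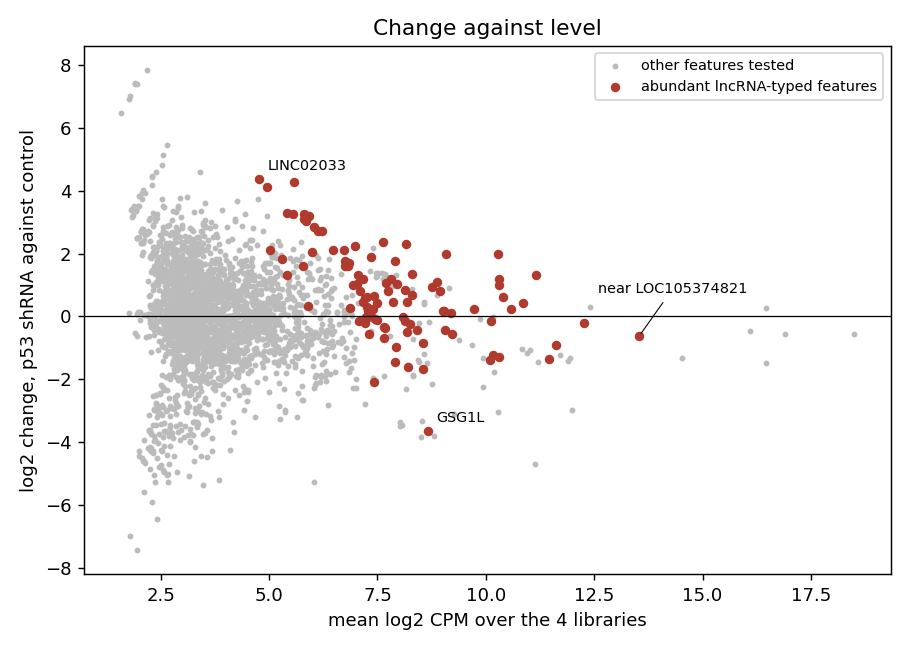
Log2 change (p53 shRNA against control) of every tested feature against its mean log2 CPM over the 4 libraries; red points are the 100 abundant lncRNA-typed features, grey points the others. The members lie towards the high end of the level axis, and their changes run from that of the GSG1L feature, -3.64, to that of the LINC02033 feature, 4.37.

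The lower member with the smallest p was URS0000D6EB81 (chr16:28062956-28063259), with 184 of its 304 own bases in the coding exon of GSG1L printed above, on the same strand. GSG1L encodes an auxiliary subunit of AMPA glutamate receptors. Counts were 1161 and 1607 in the controls against 119 and 517 with p53 shRNA, although the latter libraries are the deeper ones. The CPM was 1713 and 1592 in the controls against 42.5 and 222 under p53 shRNA. The controls lay close together and far above both p53 shRNA libraries. The log2 change was -3.64 (SE 1.18, unadjusted p-value 0.0164, adjusted p = 0.254, edgeR). This member is the 1 that DESeq2's Wald test called (adjusted p = 0.0481).

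Other lower members without overlap lay on genes of different function. URS00007E1B1E (chr16:72665170-72791624) lies on exons of the lncRNA gene AC004943.2. It has 1682 own bases opposite the coding sequence of ZFHX3, a zinc finger and homeobox transcription factor. Its CPM was 530 and 249 in the controls against 46.8 and 136 under p53 shRNA. URS00008C082B (chr18:63128212-63161869), on exons of the apoptosis inhibitor BCL2 with 416 own bases in its UTR, had CPM of 997 and 414 in the controls against 193 and 250 under p53 shRNA. URS00008BFDA5 (chr7:66296407-66301064), in an intron of the tyrosine sulfotransferase gene TPST1, had CPM of 235 and 913 in the controls against 204 and 170 under p53 shRNA. The log2 changes were -2.09, -1.67 and -1.62, and the adjusted p-values 0.542, 0.631 and 0.655 (edgeR). In each of the 3 the controls differed from each other by more than the nearest control and p53 shRNA libraries did. Without control replicate 2 the TPST1 value was -0.20, without control replicate 1 the BCL2 value was -1.03, and without p53 shRNA replicate 1 the ZFHX3 value was -1.37.

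Higher members without overlap included URS0000E61705 (chr6:22236702-22340790), within the lncRNA gene CASC15. Its CPM was 39.8 and 49.5 in the controls against 104 and 286 under p53 shRNA. All of its 1819 own bases lie within CASC15 but outside GENCODE exons, so these counts are not assigned to the CASC15 transcript. URS0000D5A81E, in an intron of the oestrogen-regulated gene GREB1 (chr2:11495182-11496494), had CPM of 419 and 200 in the controls against 517 and 1946 under p53 shRNA. URS00008B7A0F (chr11:111031194-111031606), on no gene, had CPM of 76.7 and 136 in the controls against 148.3 and 950 under p53 shRNA. URS00008B4A28 (chr5:527943-528191), 488 bases from LOC107986395, had CPM of 90.0 and 26.7 in the controls against 126 and 378 under p53 shRNA. Their log2 changes ran from 1.99 to 2.37, and their adjusted p-values from 0.513 to 0.556 (edgeR). In each of the 4, p53 shRNA replicate 2 was the highest library, and without it the log2 changes were 1.43 for CASC15, 1.03 for GREB1, 0.67 for URS00008B7A0F and 1.42 for URS00008B4A28. The eleventh most abundant member, chosen here after its values were seen, lies on AL121957.1 in an intron of SOBP. Its CPM was 859 and 931 in the controls against 1663 and 1886 under p53 shRNA, a log2 change of 0.99 (SE 0.11, adjusted p = 0.770, edgeR).

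By kind of locus, the 31 members on lncRNA genes held 1.07% and 1.87% of the counts of the controls and 1.98% and 2.29% of those of the p53 shRNA libraries. The 32 on exons of protein-coding genes held 0.834% and 1.22% in the controls against 1.73% and 1.90% under p53 shRNA. In both kinds the p53 shRNA libraries lay above the controls, with differences of 0.671 and 0.786 percentage points. Members were chosen on these same counts and the rule leans towards that direction, so the shares are a description only. The exact permutation test (two-sided, 2 libraries against 2) gave p = 0.33 for each, which is its lowest possible value, and 1 after adjustment over the 9 kinds. The 16 members in introns or on pseudogenes held 0.853% and 1.18% in the controls against 0.958% and 2.24% under p53 shRNA. The 9 on no gene held 0.842%, 1.996%, 1.32% and 1.34%.

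The 100 members together held 4.14% and 6.98% of the counts of the controls and 6.72% and 8.70% of those of the p53 shRNA libraries. The means were 5.56% ± 2.01 (SD, n = 2) and 7.71% ± 1.40 (SD, n = 2). The groups overlapped, with p = 0.667 by the exact permutation test. Without the first 2 members the shares were 3.03% and 4.50% against 5.33% and 6.78%, which do not overlap (exact permutation p = 0.33, the smallest possible). Leaving these 2 out was chosen after seeing the data, and the rule leans towards the same direction. These shares too are thus a description, from which no group difference is concluded. The 95% Wilson intervals of these shares were at most 0.0515 percentage points wide on either side and cover counting error only.

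**Figure D3:**
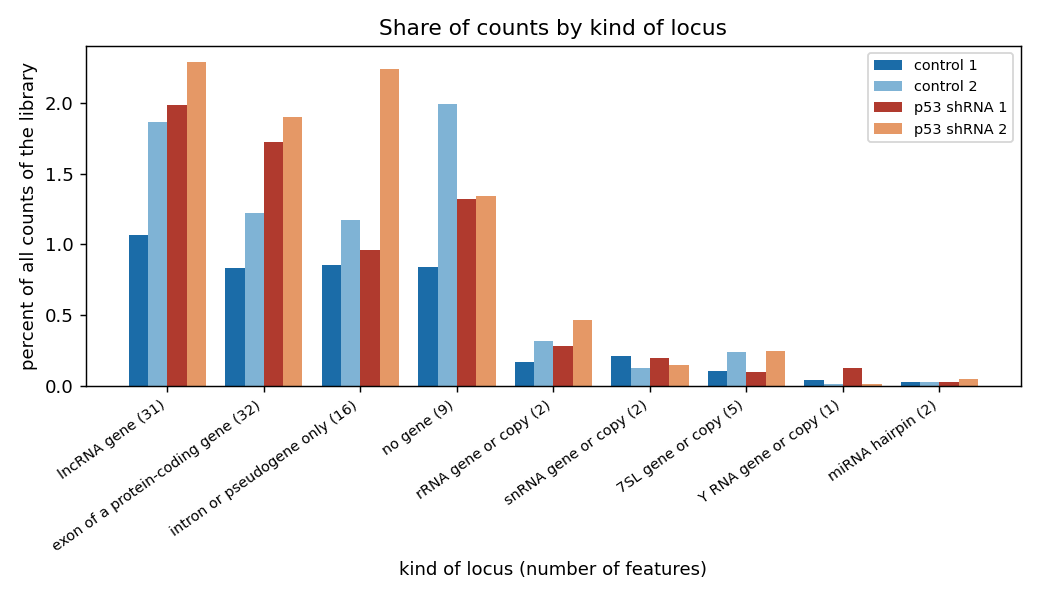
Percent of all counts of each library held by the members on each kind of locus; 1 bar is 1 library, and the number of members is in brackets. The lncRNA gene and protein-coding exon kinds are the 2 in which both p53 shRNA bars stand above both control bars.

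For 12 members, the locus is a small RNA gene or copy annotated in GENCODE or RefSeq. Own bases lay on the small RNA itself in 9 of them, which held 9.47% of the members' counts. The 2 RNA28SP members together held 0.165% and 0.315% of all counts in the control libraries, and 0.282% and 0.464% in the p53 shRNA libraries. The 5 members on 7SL copies together held 0.102% and 0.236% of all counts in the controls against 0.0993% and 0.245% with p53 shRNA. Replicate 2 was the higher library in each group. RN7SL5P, with all of its 288 own bases on the copy, had CPM of 622 and 948 in the controls against 270 and 796 under p53 shRNA. RN7SL4P had CPM of 360 and 446 in the controls against 224 and 372 under p53 shRNA. RN7SL752P had CPM of 273 and 331 in the controls against 193 and 352 under p53 shRNA. All 5 log2 changes were below 0, from -0.56 to -0.09, but with library totals 3 of the 5 were above 0 and with no filter on low counts all 5 were. None passed the test.

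The member on RNU2-2, URS0000D583D8 (chr11:62840508-62841835), has 191 own bases on the U2 sequence printed above and lies opposite WDR74, a ribosome assembly factor. Its CPM was 2763 and 1026 in the controls against 1006 and 614 under p53 shRNA, so that the lower control stood just above the higher p53 shRNA library. The second RNA28SP member, URS00008B47C3, has all of its 190 own bases on the ribosomal copy, with CPM of 1211 and 1120 in the controls against 1030 and 1081 under p53 shRNA. The RNY4P11 member, URS00008B49E5, has 94 own bases on the Y RNA copy, with CPM of 686 and 118 in the controls against 1174 and 101 under p53 shRNA. Replicate 1 was the higher library in both groups there, and the difference between replicates exceeded that between groups.

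In the other 3, the small RNA lies within the member but all its bases are shared with another feature, so no count came from it. URS0000EF20CC spans RNU5E-1, a U5 snRNA gene, and its CPM of 680, 165, 842 and 626 came from the rest of its length. URS0000D5C9DF spans MIR17HG, the host gene of the miR-17-92 cluster, with the hairpins MIR17, MIR18A, MIR19A, MIR19B1, MIR20A and MIR92A1. Its CPM of 267, 25.8, 97.9 and 250 thus came from 1158 bases within the host gene and not from these miRNAs. Those bases lie outside GENCODE exons, so the counts are not assigned to the host transcript. URS0000EEB9E0 spans MIR4683 and lies opposite FZD8, a Wnt receptor, with CPM of 94.4, 239, 146 and 143. Among the 2447 tested lncRNA-typed features that are not members, 216 (8.83%) touched a small RNA locus, against the 12 of 100 here.

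Transcript sequence covered at least 50% of the own bases in 50 members and in 1167 of the tested non-members. A run of 18 or more bases identical to a structured RNA (5S or another small ribosomal RNA, mitochondrial RNA, 7SL, 7SK, Y RNA, snRNA, snoRNA or scaRNA, RMRP or RPPH1, or vault RNA) was found in 19 of the 50 members (38%) and in 25.8% of the others. Runs of 30 or more were found in 6 members (12%), all with 7SL, and in 7.97% of the others. The GC content had a median of 51.9% among the members and 51.7% among the others. Runs shared with 28S or tRNA genes were not analysed here, so likeness to a tRNA, in the AD000090.1 exon printed above or in any other member, was not tested.

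Agreement between replicates was limited. The median ratio of the higher to the lower CPM within the controls was 2.41 for the members and 2.35 over all features. Within the p53 shRNA libraries it was 2.17 for the members and 1.58 over all features. Replicate 1 was the higher control for 46 members and the higher p53 shRNA library for 44.

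**Figure D4:**
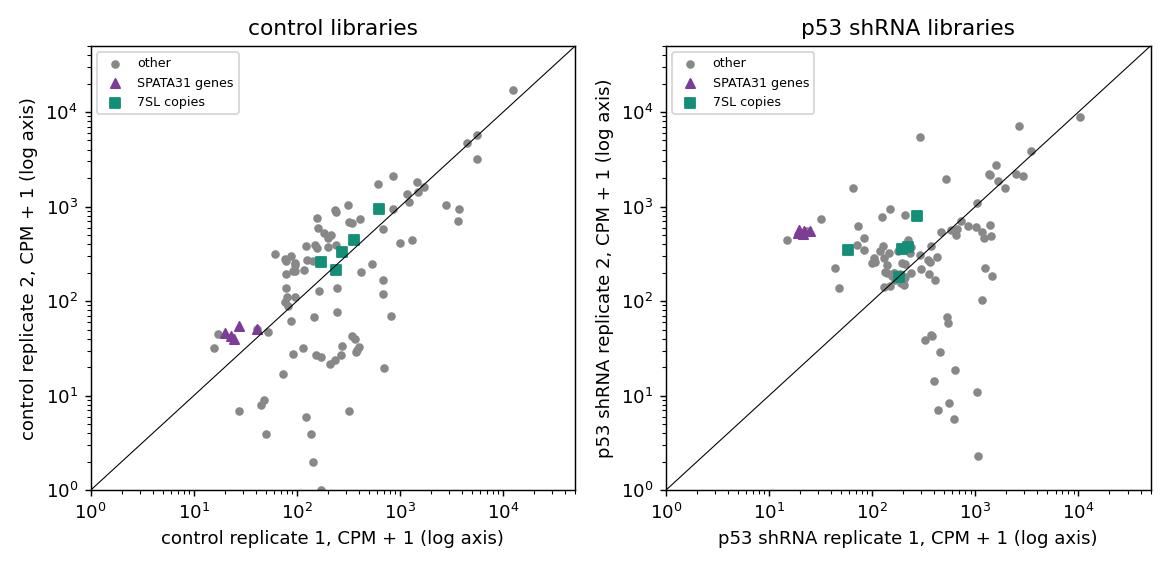
CPM + 1 of each member in replicate 1 against replicate 2 (log axes), for the control libraries (left) and the p53 shRNA libraries (right), with the line of equality. The 5 SPATA31 members lie near the line in the controls and far above it in the p53 shRNA panel, while a group of grey points lies far below it there.

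A single library held over 50% of the summed CPM in 45 members, against 35% of all features, and over 80% in 13 members, against 1.33%. Of the 13, 6 were high in p53 shRNA replicate 1 and 7 in replicate 2, and none in a control. A feature high in 1 deep library passes a limit on summed counts through that library, so the share among members is set in part by the rule. The share over all features covers those tested, and the filter on low counts had removed features with enough counts in 1 library alone. For these members the change between groups rests on 1 library and is given as counts per library. They include both members that were higher at an unadjusted p under 0.05.

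The members high in p53 shRNA replicate 1 lay on different genes, named here after their values were seen. The LINC02033 feature had counts of 33 and 3 in the controls and of 2955 and 3 with p53 shRNA. The feature on exons of ARHGAP29, a GTPase-activating protein, had 32, 8, 2922 and 23. The feature opposite RBM15B, an RNA-binding protein of the m6A writer complex, had 18, 6, 1556 and 17. These last 2 had log2 changes of 4.27 (SE 3.50) and 4.13 (SE 3.18), unadjusted p-values of 0.0429 and 0.0407 and adjusted p-values of 0.388 and 0.383 (edgeR). The others were opposite ITGAM, an integrin of myeloid cells, with 35, 47, 1772 and 41 counts, in an intron of CD244 with 97, 1, 1721 and 11, and 7500 bases from ERN1 with 30, 7, 1280 and 65. In all 6, p53 shRNA replicate 2 held at most 65 counts.

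The members high in p53 shRNA replicate 2 included 5 on the SPATA31 family, whose genes are known from spermatogenesis. The features opposite SPATA31A3, SPATA31A5 and SPATA31A7 had 18, 54, 58 and 1288 counts, 16, 39, 67 and 1279 counts, and 15, 42, 57 and 1189 counts. Those on the pseudogenes SPATA31B1P and SPATA31B2P had 27, 50, 52 and 1332 counts and 13, 45, 51 and 1231 counts. The SPATA31A3 and SPATA31A7 features also lie on exons of the lncRNA genes AL353770.3 and BX005040.3. In each of the 5, p53 shRNA replicate 2 held at least 1189 counts and the other libraries at most 67. The 5 share 194 sequences of 18 bases and the run of 40 bases printed above, so a fragment can match all of them and the 5 are not independent. The other 2 were in an intron of ATP10D (11, 44, 62 and 1287 counts) and on LINC01840 (10, 31, 39 and 1024 counts). In both, p53 shRNA replicate 2 again stood above the other 3 libraries. The LINC01840 feature shares no run of 30 bases with the SPATA31 members, and the ATP10D feature was not compared by sequence.

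**Figure D5:**
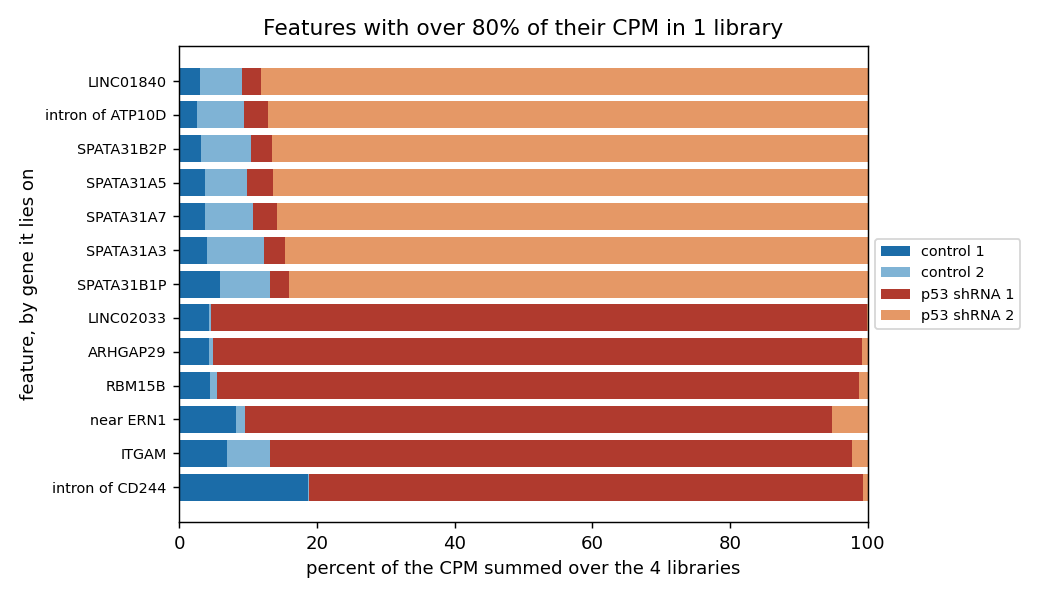
Share of the CPM summed over the 4 libraries that each library held, for the 13 members with over 80% in a single library. The 7 upper bars belong to p53 shRNA replicate 2 and the 6 lower bars to p53 shRNA replicate 1, and controls hold under 20% of each bar.

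Most other members on protein-coding exons are given by name. This kind needs no more than 1 shared exon base, and the RSPO3 member has 23 of its 3574 bases on an exon. Of its own bases, 2289 lie in the RefSeq span of CENPW and 513 in RSPO3. Where exons had to cover at least 50%, some members left the kind. These lie on ADRB1, RSPO3, EPAS1, GTF2F2, SFMBT2, ITGAM, ZFHX3, PEX3 with FUCA2, and CPZ with GPR78. The own bases of 25 of the 32 reach coding sequence and those of 21 reach a UTR. Strand matches the gene in 13, is opposite in 16 and is mixed in 3. Same-strand members not yet named lay on ADRB1, SRP68, ERC1, HNRNPD, CGB7, NDUFA11, CNOT1, RD3, DMKN and ZNF860. SRP68 is a protein of the signal recognition particle and CNOT1 the scaffold of a deadenylase complex. The ADRB1 feature (79, 215, 4078 and 428 counts) was highest in p53 shRNA replicate 1 and the ERC1 feature (157, 23, 87 and 1724 counts) in replicate 2. The ZNF860 feature, URS00008B4698, had CPM of 3755 and 943 in the controls against 1432 and 487 under p53 shRNA. Opposite-strand members lay on RSPO3, PKN2, EPAS1, GTF2F2, SFMBT2, PDPR, ING5 and a pair of genes, CPZ and GPR78. Another feature has all of its own bases on CCDC142 coding sequence. The ING5 feature (54, 112, 666 and 465 counts) and this CCDC142 feature (77, 31, 404 and 743 counts) were higher in both p53 shRNA libraries than in either control, with log2 changes of 1.20 and 1.68. The EPAS1 feature, opposite the hypoxia factor HIF-2 alpha, had 59, 305, 350 and 1788 counts and overlapped between groups.

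Of the 16 members in introns or on pseudogenes, 11 lie within a protein-coding gene, outside its GENCODE exons, and 5 on a pseudogene alone. Those not yet named lie in RHEB, VTI1A, ZBTB16, H2BC12, ANKRD30BL (with 2 members) and on RPL36AP20, IL9RP2 and TCEAL8P1. Of the 2 ANKRD30BL members, URS0000D5BB06 has 24 own bases there and 340 in GPR39. VTI1A and H2BC12 were met as RefSeq gene spans alone, in which exons and introns were not told apart. The RHEB member, URS00008BBD92 (chr7:151508182-151510766), in an intron of the GTPase that activates mTORC1, had CPM of 3689 and 704 in the controls against 1216 and 461 under p53 shRNA. Replicate 1 was the higher in each group. The members on no gene not yet named include URS00008C0284 (chr16:9680351-9683425), with CPM of 181 and 527 in the controls against 289 and 304 under p53 shRNA, and others near POMP, RPSAP26, HSPE1P20 and LOC107986484. The remaining 7SL members lie on RN7SL151P and RN7SL396P.

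The lncRNA-gene members not yet named lie on AL137060.1, LINC02692, LOC105372895, LINC03017, AC128707.1, AC003973.2, LOC105375167, AC011352.3, AC007064.2 and AC118758.3. The AL137060.1 member lies within DLEU1 but outside the GENCODE 29 exons of DLEU1. Others lie on AL021153.1, AL157932.1, COPS8-DT, LINC02963, MIR663AHG, LOC124903822, LINC02452, AC026391.1, LOC105372345 and LINC01801. Some of these genes hold few of the own bases: LOC105372345 795 of 5036, AL021153.1 608 of 4696 and AL157932.1 158 of 5876. Own bases of the members on AC128707.1, AC003973.2, AL021153.1, AL157932.1 and LINC01801 lie outside GENCODE 29 exons. The remaining 2 overlap LINC00114 and AC010967.1 but have none of their own bases there, so their counts do not come from these genes. Among them, AC007064.2 (55, 88, 967 and 638 counts), AC003973.2 (109, 269, 1044 and 899 counts), LOC105372895 (136, 471, 2038 and 1645 counts) and LOC105372345 (65, 111, 458 and 463 counts) did not overlap between groups in CPM and were higher with p53 shRNA. None passed the test.

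lncRNAs known for their response to p53 or from colon cancer were compared as lists and were absent from the members. Of 12 gene names listed for the p53 response, which hold PURPL also under its other name LINC01021, 10 are in GENCODE 29, 7 had counts, 2 had a tested feature and 0 a member. With CPM taken from the library totals, without TMM scaling, their features together had 41.8 and 84.2 in the controls against 65.1 and 92.2 under p53 shRNA, so the groups overlapped. LINC-PINT overlapped too, at 27.3 and 52.2 CPM in the controls against 30.3 and 55.6 under p53 shRNA. MIR34AHG, the host of a miRNA that p53 induces, did not, at 7.27 and 17.04 CPM (8 and 16 counts) against 23.0 and 29.4 (60 and 57 counts). Of 17 genes known in colon cancer, 15 had counts, 3 had a tested feature and 0 a member. SNHG6 had 17.3 and 13.8 CPM in the controls against 69.7 and 68.0 under p53 shRNA. UCA1, at 2.73 and 13.8 against 12.3 and 12.9 CPM, overlapped between groups. Of 6 housekeeping structured RNAs, 1 had a count, and 5 of the 6 have bases outside other features.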

How the data were processed

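The 4 libraries, 2 per group, are described below by group and replicate number. The authors deposited counts, whole numbers of reads per RNAcentral feature without normalization, and the intervals of each feature on GRCh38. The tools were BWA 0.7.17, Subread 1.6.3 and bcl2fastq 2.19, per the submitters' processing notes. The counting options are not given in the sources used here. In the deposited counts, 0 of the 66527 features with no base outside other features had a count, strand ignored. Near-identical copies can share reads, so counts on single copies are uncertain.

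The members and gene lists were chosen with earlier results of these data known. Groups were compared in R 4.3.3 with the quasi-likelihood test of edgeR 4.0.16, fitted to all 4 libraries with TMM normalization. After filterByExpr 2780 features were left, and p-values were adjusted over all of them by Benjamini-Hochberg, with a threshold of 0.05. CPM are scaled with TMM factors of 0.637 and 1.12 for the controls and 1.13 and 1.25 for the p53 shRNA libraries. Standard errors of log2 changes come from log2 CPM with a prior count of 2, as the error of the difference in means. For shares, a two-sided exact permutation test over libraries was used, with a lowest possible p of 0.33. Intervals are 95% Wilson intervals and cover counting error only.

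Named members are the 10 with the highest totals, up to 5 per direction with the smallest unadjusted p whose CPM does not overlap between groups, and up to 3 of each kind of locus with the highest totals. Any member on a listed gene would also have been named. Those named beyond this rule were chosen after their values were seen. Genes under members were read from GENCODE 29 exons and RefSeq genes of GRCh38.p14, used for names and neighbours. For genes that only RefSeq holds, the gene span was used, so exons and introns were not told apart there. Sequences come from GENCODE 29 transcripts. Alternatives were DESeq2 1.42.0 size factors and its Wald test, library totals, limma 3.58.1 voom, other filters, the fit without 25 ribosomal features, a block for the replicate number, leaving out each library, other limits on total counts (500 and 2000), a gene covering at least 50% of a member and, chosen after seeing the data, the share without the 2 most abundant members. Some members and sequences are not reported here.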

Additional observations from a re-analysis of the deposited data

How the results depend on the processing

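No feature or member passed the adjusted threshold with DESeq2 size factors, library totals, limma voom, either other filter, the ribosomal features left out or any library left out (0 in each). The DESeq2 Wald test called 37 features and 1 member, and the replicate block called 103 features and 1 member, the GSG1L feature in both (adjusted p = 0.0481 and 0.0289). The labels give the groups the same replicate numbers but do not say that these mark shared cultures. The correlation of the deviations of same-numbered libraries was 0.395 over features, and with 2 pairs the numbers are not taken as a pairing. At an unadjusted p under 0.05, the main test called 121 higher and 217 lower features, library totals 308 and 170, and no filter 2027 and 677 of 46090. The members with a log2 change above 0 were 68 in the main fit, 80 with library totals, 87 with no filter, and 54 to 74 with 1 library left out. Of 360 values of the 30 named members under the alternatives, 329 kept their direction and 31 in 14 members changed sign. None of these 31 was called. The difference between groups in the members' share was 2.15 percentage points, 0.729 to 3.57 with 1 library left out, 2.29 without the 2 most abundant members, 1.30 with a limit of 2000 counts and 2.56 with 500. With ribosomal features left out of the denominator it was 6.67 points in all, 2.10 for lncRNA genes, 2.47 for protein-coding exons, 1.80 for introns and pseudogenes, 0.416 for ribosomal copies, 0.134 for the Y RNA copy and 0.0346 for miRNA hairpins, as the smaller denominator makes every share larger. The replicate block leaves these differences of shares as they are (2.15 points in all). No snRNA, Y RNA or miRNA hairpin member is covered by its gene to at least 50%, so that alternative gave no value for these kinds. With 1 library left out, the difference in share turned sign for introns and pseudogenes without p53 shRNA replicate 2 (-0.0559 points), members on no gene without control replicate 2 (0.488), snRNA members without control replicate 2 (-0.0387) or p53 shRNA replicate 1 (-0.0212), 7SL members without control replicate 1 (-0.0638) or p53 shRNA replicate 2 (-0.0701), and the Y RNA member without p53 shRNA replicate 1 (-0.0154). The biological coefficient of variation was 0.672.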
